A study of Mus musculus with 2 samples.

Results

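Chemokines are small secreted proteins that steer the movement of leukocytes, and they signal through receptors coupled to G proteins on the target cell. The genes described here were all symbols of the mouse reference table that name a chemokine of the CC, CXC, CX3C or XC class, a signalling receptor of these classes, or an atypical receptor, which binds chemokines and removes them without G protein signalling. There were 62 such genes. Of these 53 were listed in the brown adipose tissue data, among 16174 listed genes in all, and 9 were listed in neither library. Brown adipose tissue is the fat depot that makes heat. In fat depots chemokines from adipocytes, stromal cells, vessels and resident macrophages are known to set which leukocytes enter and stay.

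RNA sequencing compared brown adipose tissue of female C57BL/6 mice fed chow until 45 weeks of age. The control library came from the genotype D3Bfl/fl, in which D3B carries floxed alleles. The knockout library came from the genotype D3Bfl/fl-UCP1-Cre+/-, which has the same floxed alleles and in addition 1 Cre transgene driven by the Ucp1 promoter, which is active in brown adipocytes. Both genotypes therefore share the floxed alleles, and D3B is read here as Dnmt3b, a DNA methyltransferase. Recombination is aimed at brown adipocytes. By that design leukocytes, vessels and stroma, where many of the genes below are expressed, should keep the floxed gene. In which cells it was lost was not measured. There was 1 library per genotype, the labels do not give how many mice were in each, and no test between genotypes is possible.

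The control library held 9666528 expected counts and the knockout library 10068359. The control was run on sequencer lane 2 and the knockout on lane 1, and Cre is given for the knockout alone, so effects of the lane, of Cre and of a lost D3B cannot be told apart. Dnmt3b was at 0.39 FPKM in control and 0.18 FPKM in knockout tissue, on 15 and 7 counts, a ratio of 0.462 with an interval of 0.155 to 1.17. FPKM is fragments per kilobase of transcript scaled to library size. The 8 brown adipocyte markers, Ucp1 among them, were all listed and summed to 12789 FPKM in control and 11124 FPKM in knockout tissue, with 7 of 8 below 0 on the log2 scale and Dio2, the deiodinase that activates thyroid hormone, called lower by the rule given below. Because whole tissue was used, fewer cells of a type and less RNA per cell cannot be told apart.

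Levels were compared for the 41 members with at least 0.5 FPKM in either library. Of these 31 reached it in both libraries, 5 did so only in the control and 5 only in the knockout, and a member that reached it in 1 library alone had to differ. Just inside that limit were Ccr1 at 0.50 FPKM and Xcr1 at 0.51 FPKM in the knockout library. Just outside were Ccl22 at 0.47 FPKM and Xcl1 at 0.46 FPKM in the control. Levels were put on the scale log2(FPKM + 0.1). A member is called higher or lower when the knockout minus control difference on that scale is at least 1.5-fold in size and the 95% interval of the FPKM ratio excludes 1. Because of the added 0.1 this difference, called the log2 ratio below, is smaller than the plain ratio for low genes. The ratios below are knockout to control ratios of FPKM, and each interval in parentheses is a 95% interval that covers counting error only.

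By this rule 7 of the 41 members were higher in the knockout library and 5 were lower. Among all 12869 genes that reached the same limit 6.67% were higher, 5.54% were lower and 12.2% were either. These shares also stand beside the called counts of each list below. The higher members were the CC ligands Ccl6, Ccl9, Ccl11 and Ccl2, the receptors Ccr2 and Cxcr4, and the atypical receptor Ackr2. The lower ones were the atypical receptor Ackr3, the CX3C ligand Cx3cl1, the CXC ligand Cxcl2 and the CC ligands Ccl21c and Ccl21d, whose values depend on how reads were divided among near-identical copies. Among the 31 members that reached the limit in both libraries 6 were higher and 2 lower, where 5.59% and 4.75% of the 12004 such genes were. The family did not move as a block: 15 members had a log2 ratio above 0, 24 below 0 and 2 at 0, with a median of -0.08 beside -0.03 over all genes compared. Above 0 were 36.6% of the members and 46.5% of all genes compared. That lean depends on scaling, since 21 members were above 0 and 20 below after rescaling both libraries to 1 FPKM total. At 2-fold 4 members were higher and 3 lower, where 2.86% of all genes were higher, 2.1% lower and 4.96% either.

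**Figure D1:**
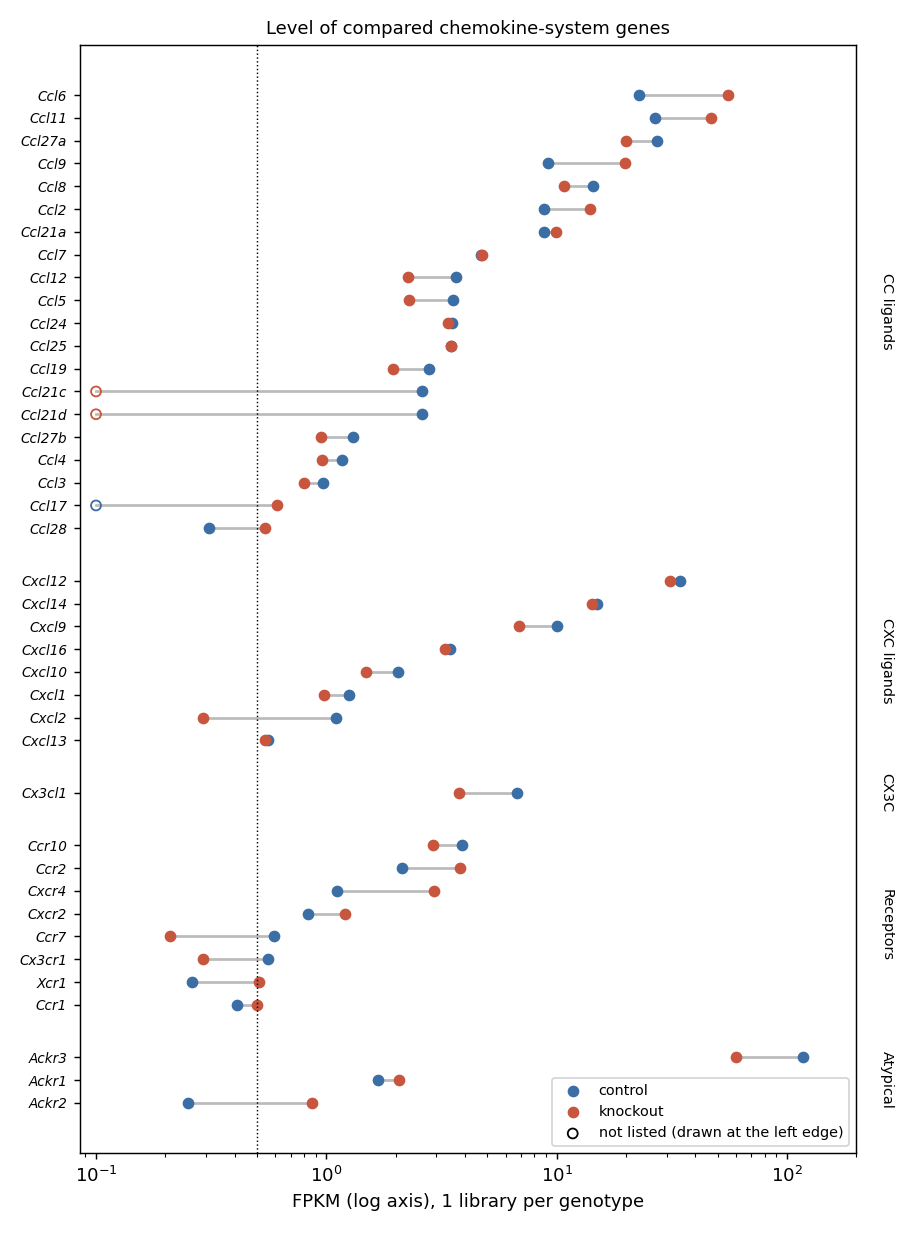
FPKM of 40 of the 41 compared genes on a log axis, with 1 point for the control and 1 for the knockout library joined by a line, grouped by class. Open circles at the left edge stand for genes not listed in that library, and the dotted line is the limit of 0.5 FPKM; Ackr3 lies farthest right in both libraries, at 117 and 60.3 FPKM.

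The levels spanned a wide range, from 117 FPKM for Ackr3 down to the limit. In the control library the order at the top was Ackr3, then Cxcl12 at 34.2 FPKM, Ccl27a at 27.35 FPKM, Ccl11 at 26.8 FPKM and Ccl6 at 22.7 FPKM. In the knockout library it was Ackr3 at 60.3 FPKM, Ccl6 at 55.7 FPKM, Ccl11 at 46.7 FPKM and Cxcl12 at 31.1 FPKM. Ccl6 thus went from the fifth to the second place among the members. The median member was at 2.59 FPKM in control and 2.27 FPKM in knockout tissue, and 12 members had fewer than 20 counts in both libraries, so their intervals are wide.

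Summed over its listed genes, the CC ligand class was at 149 FPKM in control and 199 FPKM in knockout tissue. The CXC ligands among the members were at 68.1 and 59.2 FPKM, and the atypical receptors at 119 and 63.6 FPKM. Not in the CXC sum were Pf4 and Ppbp, the genes of CXCL4 and CXCL7, whose symbols fall outside the naming rule. Pf4 was at 24.7 and 39.8 FPKM and Ppbp at 0.20 and 0.94 FPKM, so the direction of the CXC sum holds for the members alone. The signalling receptors were scarce beside their ligands, at 12.1 and 15.1 FPKM. The sum for CC ligands was therefore higher in the knockout library even though 11 of its 20 compared genes had a log2 ratio below 0, 8 above and 1 at 0.

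**Figure D2:**
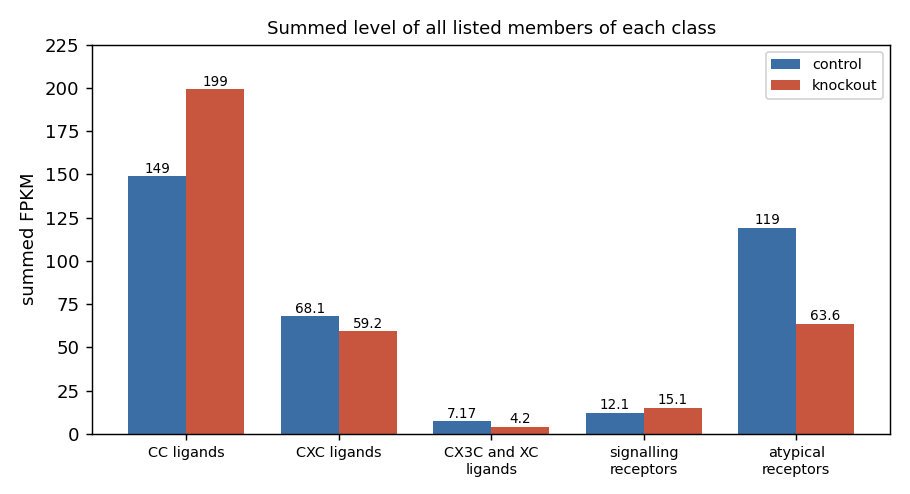
Summed FPKM of all listed members of each class (bars from 0), control in blue and knockout in red, 1 library each. Pf4 and Ppbp, CXC ligand genes outside the naming rule, are not in the CXC bars. The CC ligand sum is higher in the knockout library (199 against 149 FPKM), and the atypical receptor sum is lower (63.6 against 119 FPKM).

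Ccl6 and Ccl9 are mouse CC chemokines made by macrophages and other myeloid cells, and both bind CCR1. Ccl6 (Entrez gene 20305) was at 22.7 FPKM in control and 55.7 FPKM in knockout tissue, a ratio of 2.45 (2.15 to 2.81). Ccl9 (20308) was at 9.15 and 19.8 FPKM, giving a ratio of 2.17 (1.87 to 2.52), on counts that were in part shared with other genes. Both intervals lie wholly above 1.5, and these were the CC ligands with the largest ratios among those with at least 5 FPKM in either library. Their receptor gene Ccr1 was at 0.41 and 0.50 FPKM, on 11 and 14 counts, giving a ratio of 1.22 (0.516 to 2.98). The promoters of this pair are shown because both genes were higher and because they are neighbours on chromosome 11. Each is given as the 250 bases before the start of the gene, 5′ to 3′ on the strand of the gene, from RefSeq on GRCm38.p6. The capitals mark matches to the NF-kB consensus, to TTTCNNTTTC, the core of the interferon-stimulated response element, or to the TATA box TATAAA, on either strand.
Ccl6 (chr11:83593088-83593337, minus strand): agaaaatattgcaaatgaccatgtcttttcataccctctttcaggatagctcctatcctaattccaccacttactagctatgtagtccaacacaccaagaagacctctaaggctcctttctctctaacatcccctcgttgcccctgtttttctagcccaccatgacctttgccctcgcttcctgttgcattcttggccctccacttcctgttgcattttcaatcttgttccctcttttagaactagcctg
Ccl9 (chr11:83578637-83578886, minus strand): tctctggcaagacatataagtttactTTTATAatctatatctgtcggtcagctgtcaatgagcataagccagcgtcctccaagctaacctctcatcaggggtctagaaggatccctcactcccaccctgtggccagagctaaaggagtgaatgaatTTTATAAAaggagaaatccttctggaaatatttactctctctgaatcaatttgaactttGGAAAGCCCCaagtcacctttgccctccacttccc
The Ccl9 window held an NF-kB match 35 to 26 bases before the start and TATA box matches at 224 to 219, 94 to 89 and 92 to 87 bases before it. The Ccl6 window held none of these letters.

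The macrophage markers moved with these ligands. Of 13 markers 12 were compared, all 12 had a log2 ratio above 0, and 8 were higher by the same rule. Their summed level was 410 FPKM in control and 611 FPKM in knockout tissue, a ratio of 1.49, and no marker of the list was unlisted in either library. Lyz2, on shared counts, was at 194 and 309 FPKM and makes up the largest part of that sum. Not called were C1qa with a ratio of 1.25, C1qb with 1.26, C1qc with 1.45 and Fcgr1 with 1.45. Mertk, a receptor for dying cells, had a ratio of 2.57 (1.82 to 3.69) and the lysosomal protein gene Cd68 1.97 (1.54 to 2.53). The part of the macrophage share in the Ccl6 and Ccl9 values was not tested.

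Ccl11, or eotaxin, attracts eosinophils through CCR3. Ccl11 (20292) was at 26.8 FPKM in control and 46.7 FPKM in knockout tissue, a ratio of 1.74 (1.5 to 2.03). Ccl24, which acts on the same receptor, was at 3.51 and 3.38 FPKM, giving a ratio of 0.963 (0.611 to 1.51). Within the libraries Ccl11 was 7.63 times the level of Ccl24 per length in the control and 13.8 times in the knockout. The receptor gene Ccr3 was not listed in the control library and was at 0.09 FPKM on 3 counts in the knockout library, which is at the limit that a count of 0 allows. Genes of fibroblasts and preadipocytes, cells known to make eotaxin in tissues, summed to 268 FPKM in control and 356 FPKM in knockout tissue. Of these 7 of 8 were above 0 and 2 were higher, the collagen genes Col1a1 and Col3a1, with ratios of 1.72 and 1.51. The rest were not called, among them Pdgfra with 1.27, Dpp4 with 1.13 and Pi16 with 0.993. The part of fibroblasts and preadipocytes in the Ccl11 value was not tested.

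Ccl2, Ccl7 and Ccl12 attract monocytes through CCR2. Ccl2 (20296) was at 8.80 FPKM in control and 14.02 FPKM in knockout tissue, a ratio of 1.59 (1.16 to 2.21). Ccl7 was at 4.70 and 4.75 FPKM, giving a ratio of 1.01 (0.636 to 1.61). Ccl12 was at 3.65 and 2.27 FPKM on 17 and 11 counts, giving a ratio of 0.622 (0.263 to 1.41). Of the ligands of this receptor Ccl2 alone met the rule, and the intervals of Ccl2 and Ccl7 overlap. Ccr2 (12772) itself, a receptor of monocytes, was at 2.13 FPKM in control and 3.81 FPKM in knockout tissue, a ratio of 1.79 (1.34 to 2.41). Monocyte markers did not move together beside it: of 4 compared, 2 were above 0 and 2 below, the sum was 184 FPKM in control and 180.2 FPKM in knockout tissue, and Itgam alone was higher, with 1.99 (1.54 to 2.60). Ly6c1, which endothelial cells also express, makes up most of that sum.

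Ccl8, which in the mouse acts through CCR8, was at 14.3 FPKM in control and 10.8 FPKM in knockout tissue, a ratio of 0.752 (0.508 to 1.10). Ccl3, Ccl4 and Ccl5 are inflammatory ligands that call T cells, monocytes and other cells, and Ccl3 and Ccl5 act in part through CCR1. All of these had ratios below 1, from 0.642 (0.281 to 1.41) for Ccl5 at 3.55 and 2.28 FPKM to 0.825 (0.229 to 2.86) for Ccl3 at 0.97 and 0.80 FPKM. Ccl4 was at 1.17 and 0.96 FPKM. Each interval included 1, so a difference in these ligands was not detectable at this depth.

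The CCR7 ligands draw lymphocytes and dendritic cells into lymphoid tissue. Ccl21 exists in the mouse as several near-identical copies, and the expected counts divide reads among them. Ccl21a was at 8.85 FPKM in control and 9.96 FPKM in knockout tissue. Ccl21c and Ccl21d were at 2.59 FPKM each in the control, on 20.83 counts each, and were not listed in the knockout library. The further copies Gm10591 and Gm13304 went the other way, from 0.62 FPKM each in the control to 3.14 FPKM each in the knockout library. Summed over these 5 copies the level was 15.3 FPKM in control and 16.2 FPKM in knockout tissue, a ratio of 1.06 (0.819 to 1.36). The low Ccl21c and Ccl21d values are therefore balanced by other copies, and no difference in Ccl21 as a whole was detectable. Ccl19, the other ligand of this receptor, was at 2.80 and 1.94 FPKM, giving a ratio of 0.693 (0.313 to 1.5), and Ccr7 was at 0.59 and 0.21 FPKM on 11 and 4 counts, giving a ratio of 0.356 (0.0811 to 1.18).

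Ccl27a, a ligand of CCR10 best known from skin, was among the most abundant members. It was at 27.35 FPKM in control and 19.97 FPKM in knockout tissue, a ratio of 0.730 (0.565 to 0.937) that is within 1.5-fold. Its reads were in part shared, and the sum over Ccl27a, Ccl27b and the copy Gm13306 had the same ratio, 0.730 (0.567 to 0.917). Ccl27b alone was at 1.31 and 0.95 FPKM. Ccl28, which also binds CCR10, was at 0.31 and 0.54 FPKM, giving a ratio of 1.74 (0.798 to 4.04). Ccr10 was the signalling receptor with the highest level in the control, at 3.89 FPKM against 2.91 FPKM in knockout tissue, for a ratio of 0.748 (0.504 to 1.10). Ccl25, the ligand of CCR9, was at 3.49 FPKM in both libraries. Ccl17, a ligand of CCR4, was unlisted in the control and had 3 counts, or 0.61 FPKM, in knockout tissue.

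**Figure D3:**
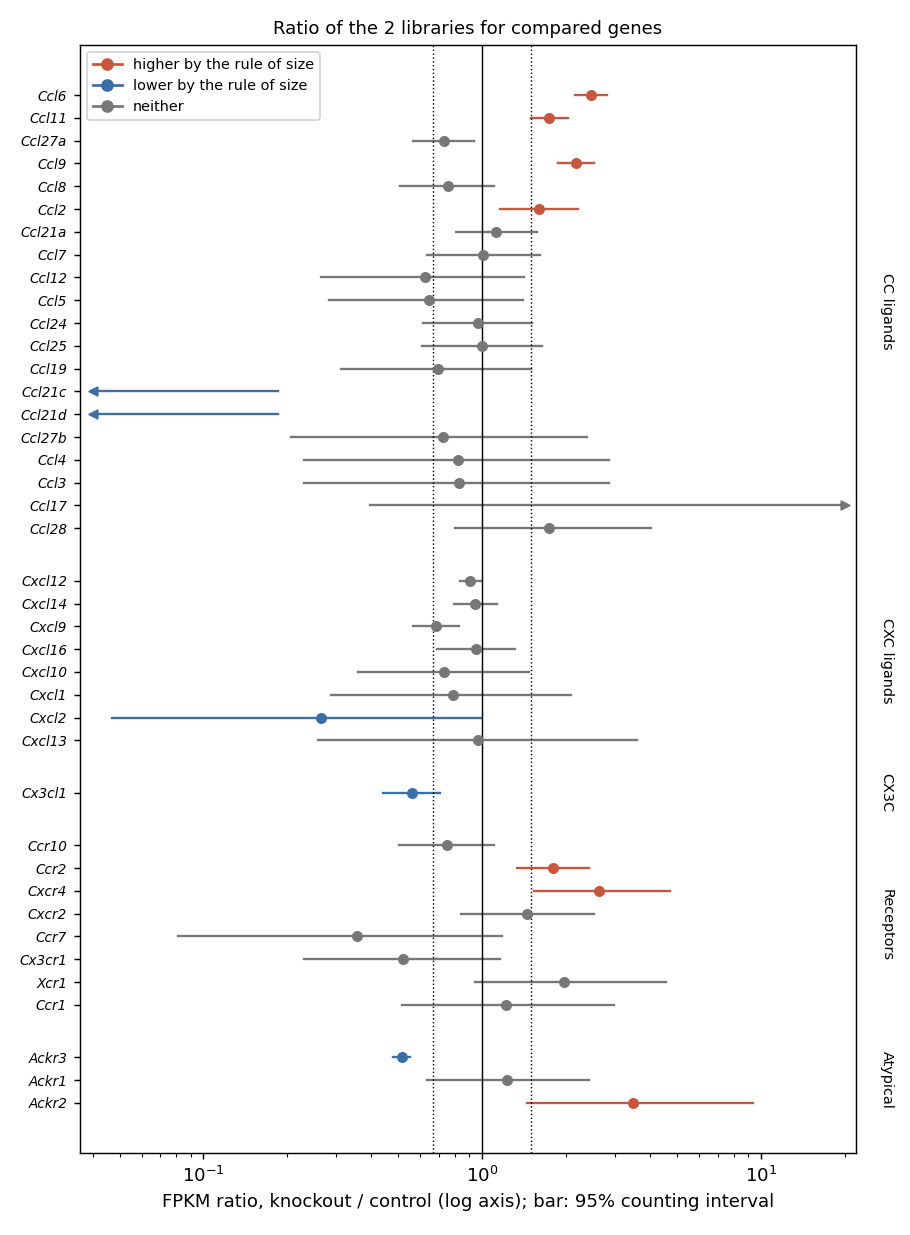
Knockout to control ratio of FPKM for 40 of the 41 compared genes on a log axis, with bars for the 95% counting interval, a solid line at 1 and dotted lines at 1.5-fold. Red marks the 7 genes called higher, blue the 5 called lower and grey the rest; arrowheads mark intervals that run past the axis, for Ccl21c, Ccl21d and Ccl17, which were not listed in 1 library.

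Among the members no CXC ligand was higher in the knockout library. Pf4 and Ppbp, CXC ligand genes whose symbols fall outside the naming rule, were higher and are given below. All 8 compared CXC ligands among the members had a log2 ratio below 0, by small amounts for most. Of the 8, 3 turned above 0 after rescaling both libraries to 1 FPKM total. Cxcl12, the ligand of CXCR4 and ACKR3 that holds progenitor and immune cells in their niches, was at 34.2 FPKM in control and 31.1 FPKM in knockout tissue, a ratio of 0.908 (0.832 to 0.989). Cxcl14, a ligand made by epithelial, stromal and fat cells, was at 15.01 and 14.2 FPKM, giving a ratio of 0.946 (0.793 to 1.13). Cxcl16, a membrane-bound ligand of CXCR6, was at 3.45 and 3.27 FPKM, giving a ratio of 0.948 (0.686 to 1.31). Cxcl13, which guides B cells, was at 0.56 and 0.54 FPKM. These ligands were within 1.5-fold.

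Cxcl9 and Cxcl10 are induced by interferon and attract activated T cells through CXCR3. Cxcl9 (17329) was at 10.02 FPKM in control and 6.85 FPKM in knockout tissue, a ratio of 0.684 (0.566 to 0.823). Its interval excludes 1, but the difference was short of 1.5-fold, with a log2 ratio of -0.54. Cxcl10 was at 2.04 and 1.49 FPKM, giving a ratio of 0.730 (0.357 to 1.47). Cxcl11, which the reference table lists as a transcribed pseudogene in this strain, had 2 and 4 counts, and the receptor gene Cxcr3 had 3 and 5. Of the interferon gamma response list 19 of 21 genes were compared, with a median log2 ratio of -0.15. None was higher and 2 were lower, where 6.67% and 5.54% of all genes compared were. The lower 2 were Cd274, the checkpoint ligand PD-L1, and Gbp4, a guanylate-binding protein. Cd274 was at 19.1 and 7.65 FPKM with a ratio of 0.401 (0.347 to 0.462), and Gbp4 had 0.567 (0.442 to 0.722). With both libraries rescaled to 1 FPKM total 1 gene of that list was higher. Ifng itself was listed in neither library. T cell markers summed to 13.02 FPKM in control and 14.97 FPKM in knockout tissue, with none of 6 called. Thy1, at 8.81 and 11.5 FPKM, makes up most of that sum. Of the 6, 3 were above 0 and 3 below. Those below were Cd3d at 0.57 and 0.31 FPKM, Cd3g at 0.85 and 0.41 FPKM and Lck at 0.56 and 0.54 FPKM. Cd3e, a CD3 gene of the T cell receptor complex, had 6 counts in the control and was not listed in the knockout library, and Lef1 was listed in neither.

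Cxcl1 and Cxcl2 recruit neutrophils through CXCR2. Cxcl2 (20310) was at 1.10 FPKM in control and 0.29 FPKM in knockout tissue, on 11 and 3 counts. It reached 0.5 FPKM in the control alone and so had to differ. The upper end of its interval barely excludes 1 (ratio 0.264, 0.0469 to 0.992). That call was lost under 3 of the scaling alternatives. Cxcl1 was at 1.25 and 0.98 FPKM, giving a ratio of 0.784 (0.288 to 2.09). Cxcr2 went the other way at 0.83 and 1.2 FPKM, giving a ratio of 1.45 (0.836 to 2.53). Of the neutrophil markers Ly6g, Ngp, Camp and Mmp8 were listed in neither library, 2 of 8 were compared, and S100a8 was higher with 2.44 (1.25 to 5.05); their sum was 5.67 FPKM in control and 13.7 FPKM in knockout tissue. The part of neutrophils in the Cxcl2 and Cxcr2 values was not tested.

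Ackr3 is a scavenger of CXCL12 and is known from endothelial and stromal cells. Ackr3 (12778) was the most abundant member in both libraries, at 117 FPKM in control and 60.3 FPKM in knockout tissue. It had 2274 and 1217 counts, and its ratio of 0.515 (0.480 to 0.553) is the most precisely counted difference of the family. Cxcr4 (12767), the signalling receptor for the same ligand on leukocytes, progenitors and vessels, was at 1.11 FPKM in control and 2.92 FPKM in knockout tissue, a ratio of 2.63 (1.53 to 4.71) on 19 and 52 counts. The receptors of Cxcl12 thus differed in opposite directions while the ligand was within 1.5-fold. Per length Ackr3 was 105 times as abundant as Cxcr4 in the control and 20.7 times in the knockout library.

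Fractalkine, encoded by Cx3cl1, is tethered to the surface of endothelial cells and neurons and holds monocytes that carry CX3CR1. Cx3cl1 (20312) was at 6.71 FPKM in control and 3.75 FPKM in knockout tissue, a ratio of 0.559 (0.441 to 0.706) on 201 and 117 counts. Its receptor gene Cx3cr1 was at 0.56 and 0.29 FPKM on 20 and 11 counts, giving a ratio of 0.518 (0.229 to 1.16). The ligand met the rule and the receptor did not, and per length the ligand was 12.0 and 12.9 times as abundant as the receptor. Xcr1, a receptor of cross-presenting dendritic cells, was at 0.26 and 0.51 FPKM, giving a ratio of 1.96 (0.941 to 4.57), and its ligand gene Xcl1 had 2 counts in each library.

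Markers of blood endothelial cells were lower beside Ackr3 and Cx3cl1. All 7 had a log2 ratio below 0 and 5 were lower by the rule, or 2 with both libraries rescaled to 1 FPKM total. Their summed level was 235 FPKM in control and 157 FPKM in knockout tissue, a ratio of 0.666, and none was unlisted. Cldn5, a tight junction protein, had a ratio of 0.495 (0.444 to 0.552), while Pecam1, chosen after its value was seen, was at 41.9 and 39.3 FPKM. The part of the endothelial share in the Ackr3 and Cx3cl1 values was not tested. Their promoters are shown because they were the lower members with over 100 counts in each library. Both held a TATA box match next to the start, at 8 to 3 bases before it in Ackr3 and 6 to 1 bases before it in Cx3cl1.
Ackr3 (chr1:90203730-90203979, plus strand): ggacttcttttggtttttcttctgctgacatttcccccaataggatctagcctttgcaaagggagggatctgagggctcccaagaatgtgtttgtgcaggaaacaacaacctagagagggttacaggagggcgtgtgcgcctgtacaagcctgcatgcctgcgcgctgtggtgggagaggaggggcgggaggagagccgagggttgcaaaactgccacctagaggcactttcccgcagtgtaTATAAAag
Cx3cl1 (chr8:94771930-94772179, plus strand): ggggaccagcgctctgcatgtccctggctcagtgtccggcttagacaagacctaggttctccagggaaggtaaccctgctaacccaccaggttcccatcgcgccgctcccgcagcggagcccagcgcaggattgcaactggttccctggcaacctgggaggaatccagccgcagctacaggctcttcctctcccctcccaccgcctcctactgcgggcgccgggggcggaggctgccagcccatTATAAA

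The other atypical receptors were scarce. Ackr2, which degrades inflammatory CC chemokines such as CCL2 and CCL11 and is known from lymphatic vessels, was at 0.25 FPKM in control and 0.87 FPKM in knockout tissue. Its ratio of 3.48 (1.45 to 9.38) rests on 7 and 26 counts, and it reached 0.5 FPKM in the knockout library alone. Ackr1, which binds chemokines on venules and red cells, was at 1.68 and 2.07 FPKM, giving a ratio of 1.23 (0.634 to 2.41). Ackr4, a scavenger of the CCR7 ligands, had 4 and 6 counts. The 6 lymphatic endothelial markers summed to 5.83 FPKM in control and 11.5 FPKM in knockout tissue, with 2 of 3 compared above 0 and 1 higher. Of these Prox1, which defines the cells, was at 0 and 0.02 FPKM, while Lyve1, which macrophages also express, was at 1.94 and 6.60 FPKM, giving a ratio of 3.40 (2.46 to 4.79). The part of lymphatic cells in the Ackr2 value was not tested.

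The promoters of Ackr2 and Cxcl2 are shown because both hold NF-kB matches and the genes differed in opposite directions. Each gene reached 0.5 FPKM in 1 library alone and so had to differ.
Ackr2 (chr9:121898105-121898354, plus strand): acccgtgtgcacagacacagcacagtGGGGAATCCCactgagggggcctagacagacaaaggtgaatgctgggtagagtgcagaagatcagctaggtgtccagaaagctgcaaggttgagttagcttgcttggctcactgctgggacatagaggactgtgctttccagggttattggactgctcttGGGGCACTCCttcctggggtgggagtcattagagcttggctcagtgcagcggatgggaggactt
Cxcl2 (chr5:90903649-90903898, plus strand): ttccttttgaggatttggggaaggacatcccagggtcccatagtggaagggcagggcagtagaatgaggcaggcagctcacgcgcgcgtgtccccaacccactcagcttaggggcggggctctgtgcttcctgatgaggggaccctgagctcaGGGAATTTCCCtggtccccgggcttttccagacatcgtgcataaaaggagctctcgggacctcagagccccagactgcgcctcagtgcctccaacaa
The Ackr2 matches lie 224 to 215 and 64 to 55 bases before the start. In Cxcl2 a pair of overlapping matches, 1 on each strand, covers 97 to 87 bases before it. An NF-kB match was found in 5 of the 30 compared members with a promoter entry, which are Ackr2, Ccl9, Cxcl1, Cxcl2 and Cxcl10, and in 3.75% of all 27025 promoters of the same length. Ackr2 and Ccl9 were higher, Cxcl2 was lower, and Cxcl1 and Cxcl10 were not called. Of the 41 compared members only 30 had an entry. The called members Ccl2, Ccl11 and Ccl21c were among those without one, so their promoters were not searched. The TATA box letters were in 9 of the 30 against 13% of all, and TTTCNNTTTC in 3 of the 30 against 3.04%. No match overlapped one of another motif, and a match is a description of letters.

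Many of these genes lie in clusters, and neighbours did not move as a block. In the order of protein-coding genes on chromosome 11, Ccl2, Ccl7, Ccl11, Ccl12 and Ccl8 follow each other, and 2 of these 5, Ccl2 and Ccl11, were higher while 3 of the 5 were above 0. Farther on come Ccl5, Ccl9, Ccl6, Ccl3 and Ccl4, of which Ccl9 and Ccl6 were higher and the flanking 3 had ratios below 1. On chromosome 9 Xcr1, Ccr1 and Ccr2 belong to a receptor cluster, with Ccr2 higher and the intervals of Xcr1 and Ccr1 including 1. On chromosome 8 Cx3cl1 lies between Ccl22 and Ccl17.

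The members below 0.5 FPKM in both libraries were Ccl22, Ccr3, Ccr9, Cxcr3, Cxcr5, Cxcr6, Cxcl3, Cxcl5, Cxcl11, Cxcl17, Xcl1 and Ackr4. They had between 0 and 8 counts, too few to show a difference. Listed in neither library were Ccl1, Ccl20, Ccl21b, Ccl26, Ccr4, Ccr6, Ccr8, Cxcl15 and Cxcr1. The receptors of Ccl8, Ccl17 and Ccl25 were thus at a few counts or not listed, although Ccl8 was at over 10 FPKM.

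Related genes whose symbols fall outside the naming rule were compared as a list of 9. Of these 4 were higher and none lower, and 1 of the 4, Ppbp, reached 0.5 FPKM in 1 library alone. Rarres2, which encodes the adipokine and chemoattractant chemerin, was at 171 FPKM in control and 297 FPKM in knockout tissue, a ratio of 1.74 (1.61 to 1.87). Its receptor gene Cmklr1, expressed by macrophages and adipocytes, had a ratio of 1.70 (1.40 to 2.08), at 6.02 and 10.3 FPKM. Ligand and receptor of chemerin were therefore both higher. Pf4, the gene of CXCL4, was at 24.7 and 39.8 FPKM, giving a ratio of 1.61 (1.29 to 2), and Ppbp, the gene of CXCL7, had 2 and 10 counts and a ratio of 4.70 (1.02 to 45.1). Both are known as platelet products, but the cells that made them here were not identified. The 6 platelet markers summed to 1.45 FPKM in control and 2.07 FPKM in knockout tissue, a ratio of 1.43, with 1 of 2 compared above 0, none called and Gp6 listed in neither library. Pf4 alone was thus above the sum of these markers in both libraries. The part of platelets, or of other cells such as macrophages, in the Pf4 and Ppbp values was not tested. The chemerin receptors Ccrl2 and Gpr1 were at 1.05 and 1.40 FPKM and at 0.19 and 0.68 FPKM, with intervals that included 1. Mif at 121 and 114 FPKM, Cklf at 2.96 and 2.63 FPKM and Gpr182 at 1.95 and 1.81 FPKM were within 1.5-fold.

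Behind the receptors, 36 of 38 genes of chemokine receptor signalling were compared, with a median log2 ratio of 0.23. Of these 10 were higher and none lower, where 6.67% and 5.54% of all genes compared were. The called genes with the largest log2 ratios were Rgs1, which shortens G protein signals in leukocytes, with a ratio of 3.48 (1.55 to 8.82), the phospholipase gene Plcb1 with 2.14 (1.76 to 2.62), and Vav1, an exchange factor of blood cells, with 2.18 (1.35 to 3.61). The other 7 were Gng2, Pik3cg, Pik3r5, Rgs10, Dock2, Rac2 and Arrb2, of which Pik3cg, Pik3r5, Dock2 and Rac2 are chiefly leukocyte genes. Of the 10, Pik3cg at 0.33 and 0.69 FPKM reached the limit in the knockout library alone. These were higher in the same library as the macrophage markers given above, whose part in them was not tested. Of 18 compared genes that bind or cut chemokines 4 were higher and 1 lower. Mmp9, a protease of neutrophils and macrophages that reached the limit in the control alone, had a ratio of 0.211 (0.0620 to 0.562), the heparan sulfate proteoglycan gene Gpc3 1.93 (1.49 to 2.52) and the macrophage elastase gene Mmp12 1.86 (1.53 to 2.26).

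NF-kB drives many inflammatory chemokine genes. Of its 35 pathway and target genes 30 were compared, 15 above and 15 below 0, with 4 higher and 2 lower and a median log2 ratio of -0.02, or 0.06 after rescaling to 1 FPKM total. The called genes with the largest differences were Sele, the adhesion receptor E-selectin of activated endothelium, with 23 counts in the control and 1 in the knockout library and a ratio of 0.0361 (0.00101 to 0.257), Ltb, a lymphotoxin subunit, with 1 and 9 counts and 8.40 (1.2 to 379), and the adaptor gene Traf1 with 2.22 (1.01 to 5.20). These 3 reached 0.5 FPKM in 1 library alone and so had to differ, and they make up 3 of the 6 calls of the list. The other 3 were Bcl3, at 9.21 and 5.46 FPKM, Tnfaip3, at 0.99 and 1.90 FPKM, and Tnfrsf1b, at 2.21 and 3.97 FPKM, which reached the limit in both libraries. Il6 and Lta were listed in neither library.

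**Figure D4:**
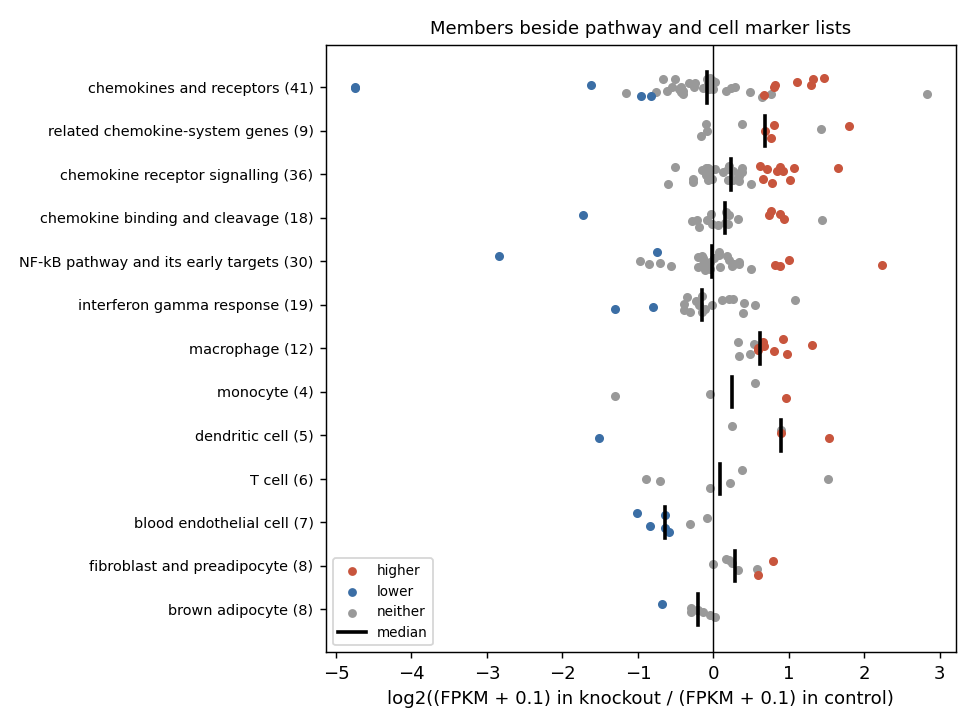
log2 ratio of each compared gene (points) and the median (black bar) for the chemokine family, 5 related pathway lists and 7 cell marker lists, with the number compared in parentheses. The macrophage points all lie above 0 and the blood endothelial points all below 0, while the chemokine family spreads to both sides with a median of -0.08.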

How the data were processed

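Brown adipose tissue was profiled by sequencing of polyadenylated RNA in 1 library per genotype, per the labels' protocols. For each gene the authors deposited an expected count, an FPKM value and a transcript length in bases (the other column used), per the file headers. RSEM and the build mm9 are named in the submitters' processing notes, and for the aligner there is nothing in the sources used here. Expected counts divide reads that match several genes. Genes not listed in a library were set to 0. Symbols came from RefSeq on GRCm38.p6 by Entrez identifier, with 16134 of 16174 genes matched; the builds differ, so coordinates are given for RefSeq promoters alone.

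No test between genotypes was possible. The rule of size used a pseudocount of 0.1, which understates differences of low genes, and a fold of 1.5. Its intervals were exact conditional Clopper-Pearson 95% intervals of rounded expected counts (Python 3.11.15, scipy 1.17.1). The rule was tried on simulated data that held counting error alone. That trial thus says nothing of variation between animals, lanes or libraries, or of reads divided among copies. Intervals treat reads as independent molecules. Counts were called shared when further than 0.05 from whole. The 8 compared members with shared counts, whose values are less certain, were Ccl9, Ccl21a, Ccl21c, Ccl21d, Ccl27a, Ccl27b, Cxcr2 and Xcr1. A count of 0 allows up to 3 counts. The protocol does not mention strand, so antisense overlaps are not separated. The median transcript length was 1162 bases for compared members and 2674 for all genes compared.

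Members, the 5 pathway lists and the 16 marker lists were chosen with earlier results of these data known. Every member with at least 0.5 FPKM in either library was named, except 1 that enters the counts and is not reported here, as was every listed gene of the related chemokine-system list. Of the other pathway lists up to 3 called genes with the largest log2 ratios were named by rule, and further called genes after their values were seen. Alternatives changed the pseudocount, the minimum FPKM, the scaling of the libraries, the fold, the interval and the use of shared counts.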

Additional observations from a re-analysis of the deposited data

How the results depend on the processing

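With 1 library per genotype no replicate could be left out, and every call rests on 2 libraries. The 7 higher members numbered 6 to 8 under the alternatives that kept the fold and the interval, 4 at 2-fold and 10 with the fold alone. The 5 lower members were 4 when both libraries were rescaled to 1 FPKM total, with or without the 20 most abundant genes, or to a median log2 ratio of 0, where Cxcl2 was lost. They were 3 at 2-fold, 3 with shared-read genes left out, 3 without Ccl21c and Ccl21d (an alternative chosen after seeing the data) and 9 with the fold alone. At 2-fold Ccl2, Ccl11, Ccr2, Ackr3 and Cx3cl1 were no longer called. Ackr2 was lost with a pseudocount of 1 and, by the filter, with a minimum of 1 FPKM. The median log2 ratio of members, -0.08, was -0.0749 with a pseudocount of 1, -0.20 with a minimum of 1 FPKM, -0.026 with no filter, -0.0525 with the median set to 0, and 0.0078 and 0.0095 at the same FPKM total with and without the 20 most abundant genes, so its sign depends on scaling. Over all genes 54.6% of calls were higher, and 66.5% and 66.7% at the same FPKM total. In 350 of the single-gene values under alternatives the log2 ratio stayed within its counting interval. The 2 that did not were those of Ccl21c and Ccl21d with a pseudocount of 1. Many of these intervals are wide, so staying within them is a weak check. No called member changed sign, but this was nearly fixed in advance. A call needs 1.5-fold, a pseudocount cannot reverse a sign, and rescaling moved values little. Ackr3 went from -0.955 to -0.866 at the same FPKM total without the 20 most abundant genes.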

Other observations

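Other leukocyte marker lists differed in direction. Over all genes compared 6.67% were higher and 5.54% lower. Of 5 compared dendritic cell markers Itgax, an integrin also found on macrophages, had a ratio of 3.11 (2.04 to 4.71) and the lectin gene Clec10a 1.88 (1.41 to 2.50), both on shared counts, while the lectin gene Cd209a, which reached 0.5 FPKM in the control alone, was lower with 0.308 (0.110 to 0.741). Flt3, a defining receptor of these cells, was not listed in the control library and had 1 count in the knockout library. Of 6 mast cell markers 1 was lower, the protease gene Mcpt4, at 8.94 FPKM in control and 5.20 FPKM in knockout tissue with a ratio of 0.582 (0.399 to 0.839). Natural killer and B cell markers were near 0, with summed levels of 1.67 and 1.21 FPKM and of 2.10 and 1.51 FPKM, and 1 gene compared in each list. Pericyte and smooth muscle markers had 1 higher and 1 lower gene of 7, skeletal muscle markers 1 higher gene of 3, and neuron and Schwann cell markers none called of 3.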
